A study of Mus musculus with 352 samples.

Results

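The comparison asks whether skeletal muscle of mice without the clock protein BMAL1 answers a restricted feeding window in the way that wild-type muscle does. It rests on 93 of the 352 libraries of the series, each from the whole tibialis anterior of 1 mouse, a muscle of the shin. The 4 groups held 23 Bmal1 knockout mice on time-restricted feeding (KO TRF), 24 knockout mice fed ad libitum (KO ALF), 24 wild-type mice on time-restricted feeding (WT TRF) and 22 wild-type mice fed ad libitum (WT ALF). All were C57BL/6 mice of both sexes at 26 weeks of age. The knockout is labelled Bmal1(stopFL/stopFL), Cre(-/-), a floxed stop cassette that no Cre removes and that is present in the whole body, so muscle was not the sole tissue affected. The labels do not give the hours of feeding. Muscles were taken at zeitgeber times (ZT) 0, 4, 8, 12, 16 and 20, with 3 to 5 mice per group and time. No library was chosen by its values, and all libraries that the labels place in these groups were used.

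BMAL1, encoded by Arntl, pairs with CLOCK and binds E-box sequences to switch on Per, Cry, Nr1d1, Nr1d2 and Dbp, whose products feed back on the pair. Mealtime is a second timing signal for peripheral tissues, carried by insulin, nutrients, hormones and body temperature. In skeletal muscle, which takes up much of the glucose from a meal, both inputs act on genes for fuel choice, and fat and carbohydrate genes change between the fed and the fasted phase.

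The values were log2 FPKM, the log2 of fragments per kilobase of gene, scaled to library size, and each gene was fitted with a 24 h mean level and a 24 h cosine and sine per group. The response to feeding is TRF minus ALF within a genotype, and the interaction is the KO response minus the WT response, so a negative interaction means a lower response in KO. A gene was called at an adjusted p under 0.05 (limma, Benjamini-Hochberg over 9862 genes). Estimated depth was 14.5 to 32.5 M assigned reads per library. At the median depth and the median exon length, 1 FPKM stood for about 89.9 reads. Nothing in the labels says how mice were housed, so p-values measure the spread between mice of these groups only.

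The response in mean level differed between genotypes for 2716 genes, 27.5% of those tested. Of these, 1080 (11%) had a higher response in KO and 1636 (16.6%) a lower one. The interaction was at least 0.5 in size, on the log2 scale, for 681 of the called genes and at least 1 for 44. In KO mice 2038 genes (20.7%) were called between TRF and ALF, 700 (7.1%) higher and 1338 (13.6%) lower. In WT mice 3337 genes (33.8%) were called, 1637 (16.6%) higher and 1700 (17.2%) lower. The order of these 2 counts depended on the fit: with the GC and length slopes as covariates 2427 genes were called in KO and 1731 in WT, and in females alone 1677 in KO and 694 in WT. A total of 664 genes were called in both genotypes, which is 32.6% of the KO calls and 19.9% of the WT calls. Among them 461 moved the same way and 203 opposite ways. With the median of every library set equal, 2703 genes had a called interaction and 52.8% of them were higher in KO, against 39.8% in the fit reported here. The same scaling gave 903 higher and 974 lower genes for the KO response. Between genotypes, KO against WT, 5040 genes (51.1%) differed in level on TRF, 2404 (24.4%) higher and 2636 (26.7%) lower, and 4740 (48.1%) on ALF, 2506 (25.4%) higher and 2234 (22.7%) lower. Their rhythm differed for 44 genes (0.446%) on TRF and 17 (0.172%) on ALF.

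**Figure D1:**
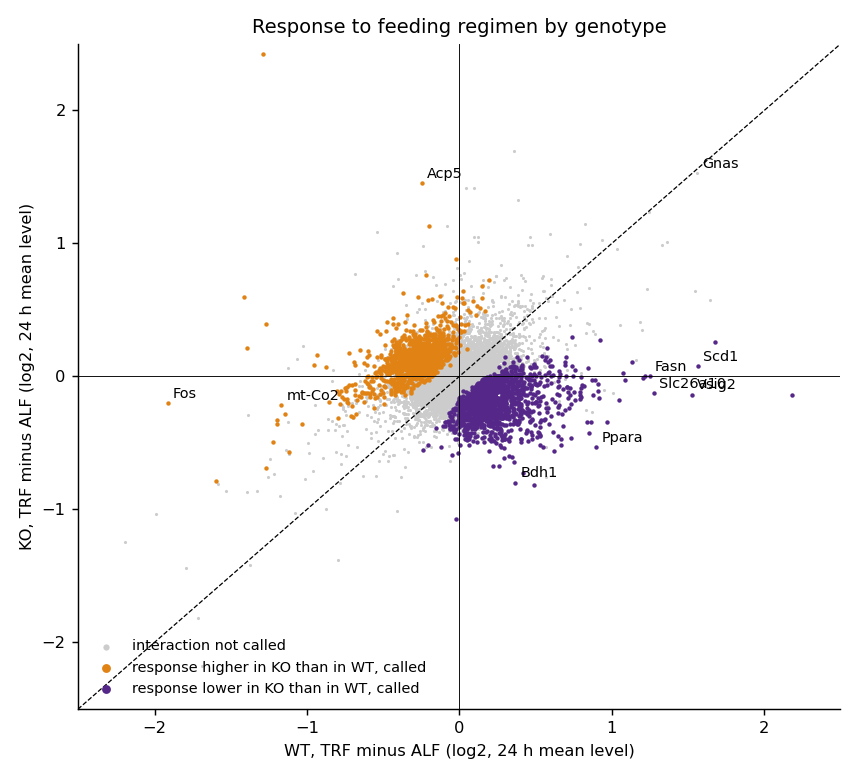
Each point is a gene: its TRF minus ALF difference in 24 h mean level (log2) in WT mice on the horizontal axis and in KO mice on the vertical axis, with the dashed line where both are equal and 3 genes outside the plotted range of 2.5. Genes with a called interaction lie off the line, and Scd1, Fasn and Vsig2 sit far to the right at a KO response near 0.

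The WT ALF libraries stood apart from the other 3 groups in several measures that were not part of any comparison. Reads of mitochondrial genes made up 14.6 ± 3.83% in KO TRF, 15.8 ± 3.0% in KO ALF, 15.6 ± 3.60% in WT TRF and 23.2 ± 6.17% in WT ALF (mean ± SD, n = 23, 24, 24 and 22). The slope of log2 level on GC content, per 10 points of GC, averaged 0.03 in KO TRF, 0.00 in KO ALF, 0.10 in WT TRF and -0.08 in WT ALF. The slope on log2 exon length averaged -0.05 in KO TRF, 0.00 in KO ALF, 0.01 in WT TRF and -0.03 in WT ALF, so KO TRF and not WT ALF was lowest there. The interaction followed both properties: its median was 0.15 in the 25% of genes with the shortest exons and -0.14 in the 25% with the longest, and 0.12 in the 25% lowest in GC and -0.11 in the 25% highest in GC. With both slopes as covariates, a fit added after the data were seen, 121 interactions were called, 84 of them called with the same direction without the slopes. The part that these library properties have in each result was not tested beyond this fit. Another 7 libraries had residuals spread far wider than the rest (2 KO TRF, 3 KO ALF, 1 WT TRF and 1 WT ALF), and without them 3651 interactions were called.

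**Figure D2:**
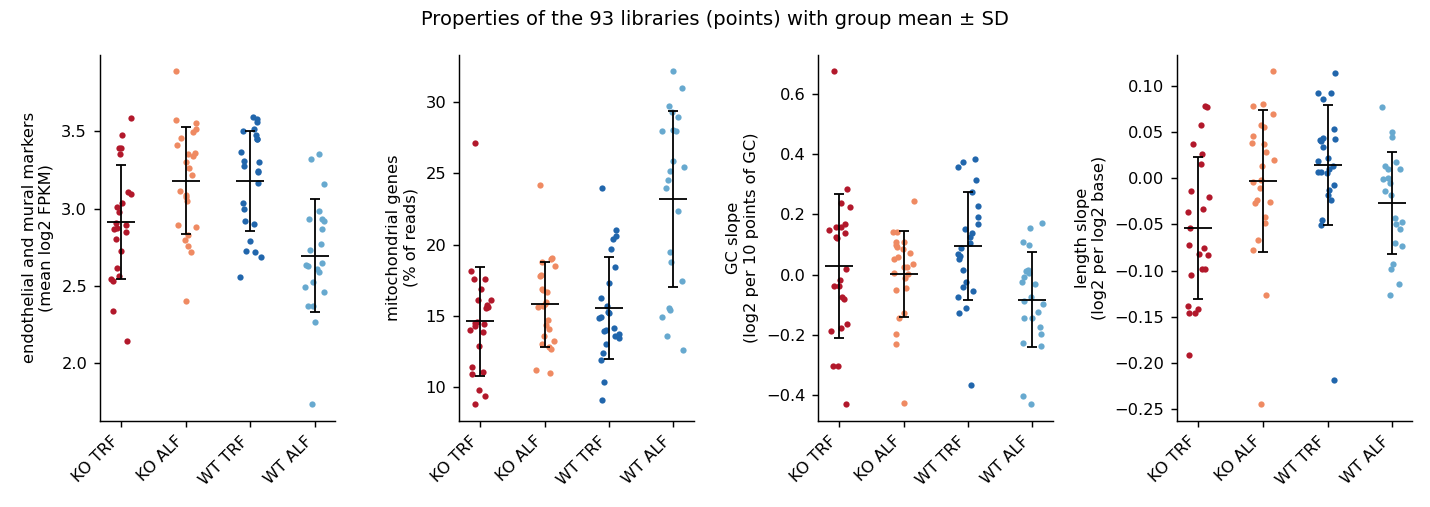
Each point is 1 of the 93 libraries, with the group mean and SD in black, for the mean log2 level of endothelial and mural markers, the percent of reads in mitochondrial genes, and the slopes of log2 level on GC and on exon length. WT ALF libraries are the lowest group for the endothelial and mural markers and for the GC slope, and the highest for the mitochondrial percent.

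Genes of fatty acid and triglyceride synthesis rose on TRF in WT muscle in most members, while few members moved in KO muscle. Of the 16 tested genes of this list, out of 19 listed, 11 were called higher in WT and none lower, while 1 was higher and 1 lower in KO. The interaction was called for 6 (37.5%), all lower in KO, against 27.5% of all genes called and 16.6% called lower. In WT 68.8% of the list was called, against 33.8% of all genes, and in KO 12.5%, against 20.7%. The median response of the 16 was 0.06 in KO and 0.40 in WT on the log2 scale, beside -0.03 and 0.01 for all tested genes.

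The gene for stearoyl-CoA desaturase, Scd1, which makes monounsaturated fatty acids, had the largest interaction by size of the 6 called members, and also the highest adjusted p. Its log2 FPKM ran from 1.6 through a median of 3.27 to 5.84 in KO TRF and from 1.64 through 3.25 to 5.62 in KO ALF. In WT TRF it ran from 1.26 through 3.19 to 5.05, and in WT ALF from 0.24 through 1.52 to 4.19. All 4 groups overlapped, and WT ALF was the low one, with 21 of 24 WT TRF libraries above its median. The response was 0.08 ± 0.31 in KO and 1.56 ± 0.31 in WT (SE), and the interaction was -1.49 ± 0.44 (adjusted p = 0.00971). The WT difference was positive at each of the 6 times, from 0.88 at ZT 12 to 3.0 at ZT 8.

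Fasn, the fatty acid synthase, ran from -0.19 through a median of 1.14 to 3.69 in KO TRF and from 0.15 through 1.18 to 3.06 in KO ALF. Its log2 FPKM ran from -0.69 through 1.02 to 2.15 in WT TRF and from -1.43 through -0.38 to 0.78 in WT ALF. In WT, 16 of 24 TRF libraries lay above the highest ALF library, against 1 of 23 in KO. The interaction was -1.25 ± 0.31 (adjusted p = 0.0023). Acly, which makes cytosolic acetyl-CoA from citrate, had responses of -0.02 in KO and 0.44 in WT. Dgat2, which adds the last fatty acid of a triglyceride, had -0.04 in KO and 0.64 in WT. Elovl5, an elongase of polyunsaturated fatty acids, fell by 0.31 in KO and rose by 0.28 in WT. Lpin1, a phosphatidate phosphatase and coactivator, had -0.30 in KO, which was not called, and rose by 0.39 in WT. The interactions of these 4 were -0.46, -0.68, -0.60 and -0.69, with adjusted p from 0.0011 to 0.00798.

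The promoters of the called members are shown because BMAL1 acts through the E-box and nuclear receptors through related sites. For 4 of the 6, RefSeq (GRCm38.p6) gave a window from 250 bases before to 50 after the gene's start, written 5′ to 3′ on the gene's strand. Capitals mark a match. Elovl5 lies at chr9:77917115-77917414 (plus strand), Lpin1 at chr12:16610917-16611216, Acly at chr11:100527951-100528250 and Fasn at chr11:120824498-120824797 (minus strand for these 3).
Elovl5: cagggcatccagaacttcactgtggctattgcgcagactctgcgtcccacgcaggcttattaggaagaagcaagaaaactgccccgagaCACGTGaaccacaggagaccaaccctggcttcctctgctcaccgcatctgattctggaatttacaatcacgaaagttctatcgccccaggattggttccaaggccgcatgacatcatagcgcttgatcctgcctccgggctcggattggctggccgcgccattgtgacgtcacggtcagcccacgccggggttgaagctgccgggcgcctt
Lpin1: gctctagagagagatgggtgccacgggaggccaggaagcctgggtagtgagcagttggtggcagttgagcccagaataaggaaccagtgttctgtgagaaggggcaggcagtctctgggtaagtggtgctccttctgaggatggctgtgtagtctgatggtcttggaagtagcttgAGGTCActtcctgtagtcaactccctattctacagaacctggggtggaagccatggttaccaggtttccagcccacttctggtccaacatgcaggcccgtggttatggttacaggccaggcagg
Acly: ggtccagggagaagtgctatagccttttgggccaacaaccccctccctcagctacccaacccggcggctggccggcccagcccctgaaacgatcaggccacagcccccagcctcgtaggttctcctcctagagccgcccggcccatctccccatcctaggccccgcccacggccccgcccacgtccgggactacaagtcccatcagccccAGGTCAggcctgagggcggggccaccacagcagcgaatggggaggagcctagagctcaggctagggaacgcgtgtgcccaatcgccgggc
Fasn: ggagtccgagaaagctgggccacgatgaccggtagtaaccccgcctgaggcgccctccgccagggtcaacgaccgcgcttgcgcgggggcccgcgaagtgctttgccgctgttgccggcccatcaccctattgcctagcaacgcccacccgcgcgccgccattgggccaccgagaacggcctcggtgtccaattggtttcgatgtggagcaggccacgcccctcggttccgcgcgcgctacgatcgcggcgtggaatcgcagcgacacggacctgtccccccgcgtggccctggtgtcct

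The motifs searched on both strands were CACGTG (the E-box), AGGTCA (a nuclear receptor site), and TTATGTAA and TTATGCAA (D-box forms bound by DBP and NFIL3). None of these overlaps another. Elovl5 held CACGTG, its first base 161 before the start. Lpin1 held AGGTCA 74 before the start and Acly held AGGTCA 40 before it, and Fasn held none of the 4. Among 32851 promoters of the same length, 7.15% held CACGTG, 16.3% AGGTCA, 0.938% TTATGTAA and 0.743% TTATGCAA.

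With the GC and length slopes as covariates no member of the lipid synthesis list was called, its median interaction was -0.27, and Scd1 had -1.31 (adjusted p = 0.15) and Fasn -0.80 (adjusted p = 0.17). Some adipocyte markers rose on TRF in WT, and the part of fat cells in the result was not tested. Of 7 adipocyte markers 2 passed the filter on low values, Fabp4 and Cfd. Neither was called in the interaction or in the response of either genotype. Plin1, Retn and Cidec, which coat or accompany fat droplets or are secreted by fat cells, lay below it: their median log2 FPKM were -1.0, -0.20 and -0.39 in KO TRF, -1.08, -0.53 and -0.56 in KO ALF, -1.23, -1.39 and -0.94 in WT TRF, and -2.34, -2.22 and -2.03 in WT ALF. Without the filter these 3 were called higher on TRF in WT, by 1.14, 1.04 and 1.29, and none of the 7 markers had a called interaction. The WT responses of Adipoq (0.79), Lep (1.0), Cfd (0.70) and Fabp4 (-0.06) were not called. Fabp4, the highest of the 7 in level, had 0.25 in KO, not called.

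**Figure D3:**
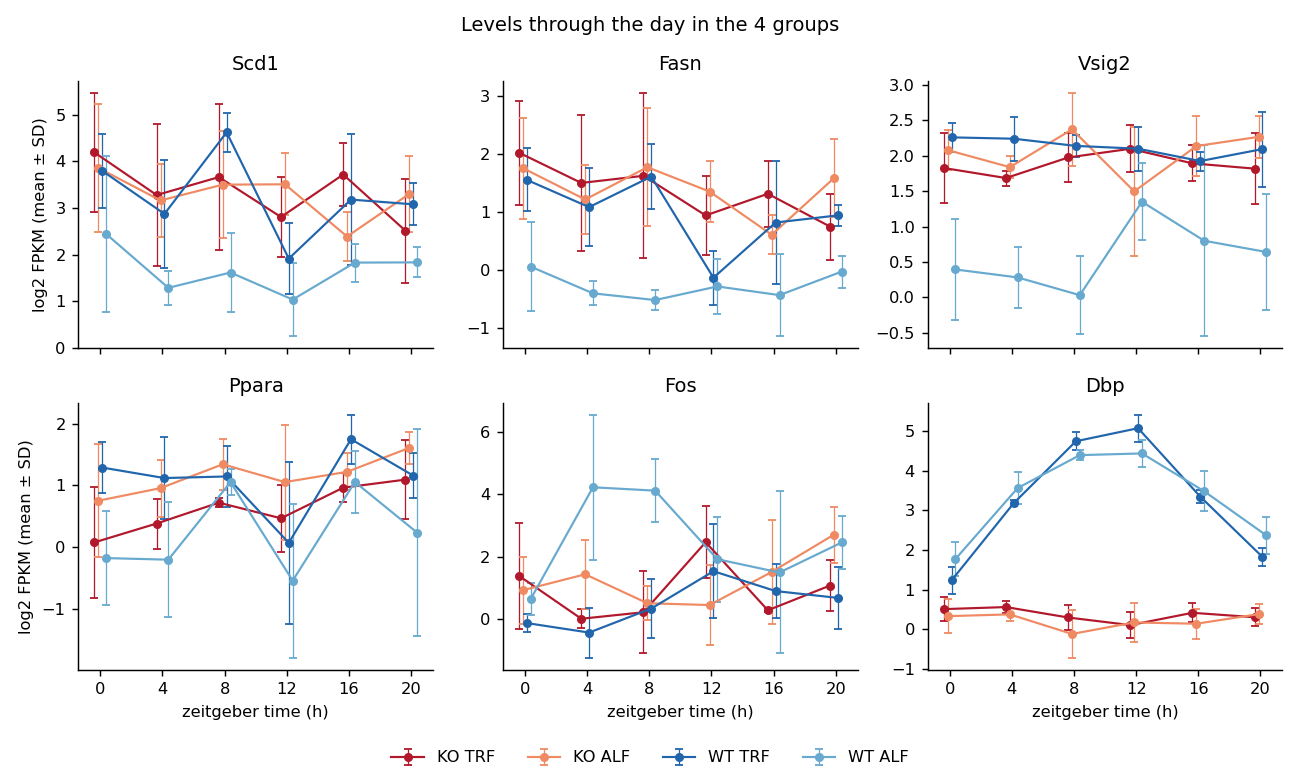
Mean log2 FPKM with SD of 3 to 5 mice at each zeitgeber time for 6 genes in the 4 groups. Scd1, Fasn and Vsig2 are lowest in WT ALF at nearly every time, Fos in WT ALF is high at ZT 4 and ZT 8, and Dbp is flat in both KO groups.

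Some regulators and enzymes of the fasted state also had a lower response in KO, though the fasting response list was not called more often than all genes. Ppara, the nuclear receptor that turns on fatty acid oxidation and ketone use, ran in log2 FPKM from -0.88 through 0.68 to 1.81 in KO TRF and from -0.62 through 1.24 to 1.90 in KO ALF. It ran from -1.89 through 1.16 to 2.17 in WT TRF and from -1.69 through 0.53 to 1.67 in WT ALF. The groups overlapped, but only 2 of 23 KO TRF libraries lay above the KO ALF median, against 21 of 24 in WT. The interaction was -1.43 ± 0.33 (adjusted p = 0.0013), from a KO response of -0.53 that was not called and a WT response of 0.90 that was. Bdh1, which interconverts the ketone bodies, fell by 0.80 in KO and had 0.37 in WT, an interaction of -1.17 (adjusted p = 0.00106). Ppara and Bdh1 stayed called with the GC and length slopes, at -1.05 and -1.07.

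Of the 16 tested fasting response genes, 3 had a called interaction, all lower: Ppara, Hadha of mitochondrial fatty acid oxidation (-0.38) and the receptor gene Ppard (-0.28). That is 18.8% of the list, against 27.5% of all genes. Other genes of the list had positive values that were not called: Angptl4, a secreted inhibitor of lipoprotein lipase, had an interaction of 1.37 (adjusted p = 0.113) and rose by 1.41 in KO, and Pdk4, which holds back pyruvate oxidation, had 0.84 (adjusted p = 0.298). Among 13 ketone body and PPAR target genes 4 (30.8%) were lower, Pparg (-0.37) beside Ppara, Bdh1 and Ppard. Of 24 genes of fatty acid oxidation and uptake, 16.7% were called, 1 higher and 3 lower. The higher one was Fabp3, the fatty acid carrier of muscle, which rose by 0.55 in KO and had -0.11 in WT. The largest of the lower ones was Acacb, whose product malonyl-CoA holds back fatty acid entry into mitochondria, with -0.12 in KO and 0.51 in WT. The median interaction was -0.27 over the fasting list, -0.27 over the ketone and PPAR list and -0.08 over the oxidation list, beside -0.02 over all tested genes. The medians of these lists with the GC and length slopes were 0.03 for fasting, -0.13 for ketone and PPAR and -0.14 for oxidation, so the direction of the fasting list turned.

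Glucose, glycogen, insulin and amino acid genes had called interactions about as often as all genes or less often: 25.0%, 26.7%, 21.7% and 27.3% of these lists were called, against 27.5% of all genes. Of 24 genes of glucose uptake and glycolysis, 5 had a lower interaction and 1, Pgk1, a higher one (0.33). Hk2, which traps glucose in the cell, fell by 0.34 in KO and had 0.14 in WT, an interaction of -0.47. Tbc1d4, which gates insulin-driven glucose uptake, had 0.02 in KO and rose by 0.49 in WT. Ldhb, the lactate dehydrogenase form of oxidative tissue, had an interaction of -0.41 and stayed called with the GC and length slopes, at -0.63 (adjusted p = 0.00767). Of 15 glycogen genes 3 were lower, among them glycogen synthase Gys1 (-0.50), and 1, the phosphatase subunit Ppp1r3a, was higher (0.37).

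Of 23 genes of insulin and IGF signalling 5 were lower and none higher. Mtor, the growth kinase, and its inhibitors Tsc1 and Tsc2 all had lower responses in KO. Mtor fell by 0.32 in KO and rose by 0.31 in WT (interaction -0.63 ± 0.13, adjusted p = 0.00076), and Tsc2 fell by 0.25 in KO and rose by 0.24 in WT. Of 22 amino acid genes 5 were lower and 1 higher. Glul, glutamine synthetase and a glucocorticoid target, fell by 0.49 in KO and had 0.40 in WT, an interaction of -0.90. Ivd, of leucine breakdown, had -0.36, and the higher one was the amino acid carrier Slc38a2 (0.42). The list medians of the interaction were -0.06 for glucose, -0.17 for glycogen, -0.18 for insulin and -0.13 for amino acids. With the GC and length slopes 1 glucose gene, Ldhb, was called and none of the other 3 lists.

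Myosin genes of fast fibres, oxidative and glycolytic, had lower responses in KO, while the median interaction of the whole fast fibre list was positive. Myh2, the myosin heavy chain of type 2A fibres, ran in log2 FPKM from 6.61 through 7.85 to 9.31 in KO TRF and from 7.04 through 8.54 to 9.38 in KO ALF. It ran from 7.21 through 8.38 to 9.34 in WT TRF and from 6.07 through 7.29 to 9.24 in WT ALF. WT ALF and KO TRF were the low groups, with wide overlap. The interaction of Myh2 was -1.28 ± 0.28 (adjusted p = 0.00094), that of Myh1, of type 2X fibres, was -0.88, and that of Myh4, of the glycolytic type 2B fibres, was -0.52. Of 13 fast fibre genes 4 were lower and 2 higher, Pvalb, a calcium buffer of fast fibres, among the higher (0.56). Of 8 slow fibre genes 2 were lower, the calcium pump gene Atp2a2 (-0.63) and Tpm3 (-0.43), and none was higher. The called shares were 46.2% of the fast and 25.0% of the slow fibre list, against 27.5% of all genes. The median interaction was 0.15 over the fast and -0.39 over the slow fibre list, beside -0.02 over all tested genes. The myosin genes have near-identical coding stretches, so reads may be split between them, and with the GC and length slopes no member of either fibre list was called.

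Stress and activity genes went both ways. Fos, an immediate early gene that activity and stimulation switch on, ran in log2 FPKM from -1.03 through 0.81 to 3.89 in KO TRF and from -1.43 through 1.2 to 3.68 in KO ALF. It ran from -1.52 through 0.23 to 2.85 in WT TRF and from -1.11 through 2.45 to 6.17 in WT ALF. Its response was -0.20 in KO, not called, and it fell by 1.91 in WT, an interaction of 1.71 ± 0.57 (adjusted p = 0.0197). The WT difference was -4.65 at ZT 4 and -3.78 at ZT 8 and lay between -1.77 and -0.38 at the other times. Fos stayed called with the slopes, at 2.40. Of 10 immediate early genes Fos alone had a called interaction (10.0%, against 27.5% of all genes). In WT 4 (40.0%) were called lower on TRF and none higher, against 33.8% of all genes called and 17.2% called lower. In KO none was called, against 20.7% of all genes. The median interaction of the list was 0.44.

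Of 19 glucocorticoid response genes 2 were lower in KO, Glul and Ddit4, and 1, the phosphatase gene Dusp1, was higher (0.48). The called share of this list was 15.8%, against 27.5% of all genes. Ddit4, a brake on mTOR that fasting and glucocorticoids raise, had -0.34 in KO and rose by 0.97 in WT (interaction -1.31 ± 0.42, adjusted p = 0.015). Cdkn1a, a cell cycle inhibitor, had an interaction of -0.86. Hipk2, a stress kinase, fell by 0.81 in KO and had 0.49 in WT, an interaction of -1.31 ± 0.37 (adjusted p = 0.00741). None of these 3 was called with the GC and length slopes.

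Of the oxidative phosphorylation genes 20.0% had a called interaction and of the antioxidant genes 31.2%, against 27.5% of all genes. Of 30 nuclear genes of oxidative phosphorylation, 5 were higher, led by Ndufa2 of complex I (0.70), and 1, Sdha of complex II, was lower (-0.27). The median interaction was 0.19, and it was -0.18 with the GC and length slopes, so the direction of this list turned. Of 16 antioxidant genes 4 were higher, led by Prdx1 (0.49), and 1, Prdx6, was lower (-0.22). Among 32 tested genes of the mitochondrial genome, 21 fell on TRF in KO and 30 in WT, and 11 had a higher interaction. Of all genes 13.6% were lower in KO, 17.2% lower in WT and 11% higher in the interaction. The median response of the 32 was -0.68 in KO and -1.16 in WT (log2), and 19 of them are transfer or ribosomal RNA genes. The cytochrome oxidase genes mt-Co2 and mt-Co3 had interactions of 0.95 and 1.09. Their responses were -0.22 and 0.16 in KO, neither called, and -1.17 and -0.93 in WT. Reads of mitochondrial genes can also match nuclear copies, so the values of these 2 genes are uncertain. The higher mitochondrial share of WT ALF libraries stands beside all the mitochondrial values.

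**Figure D4:**
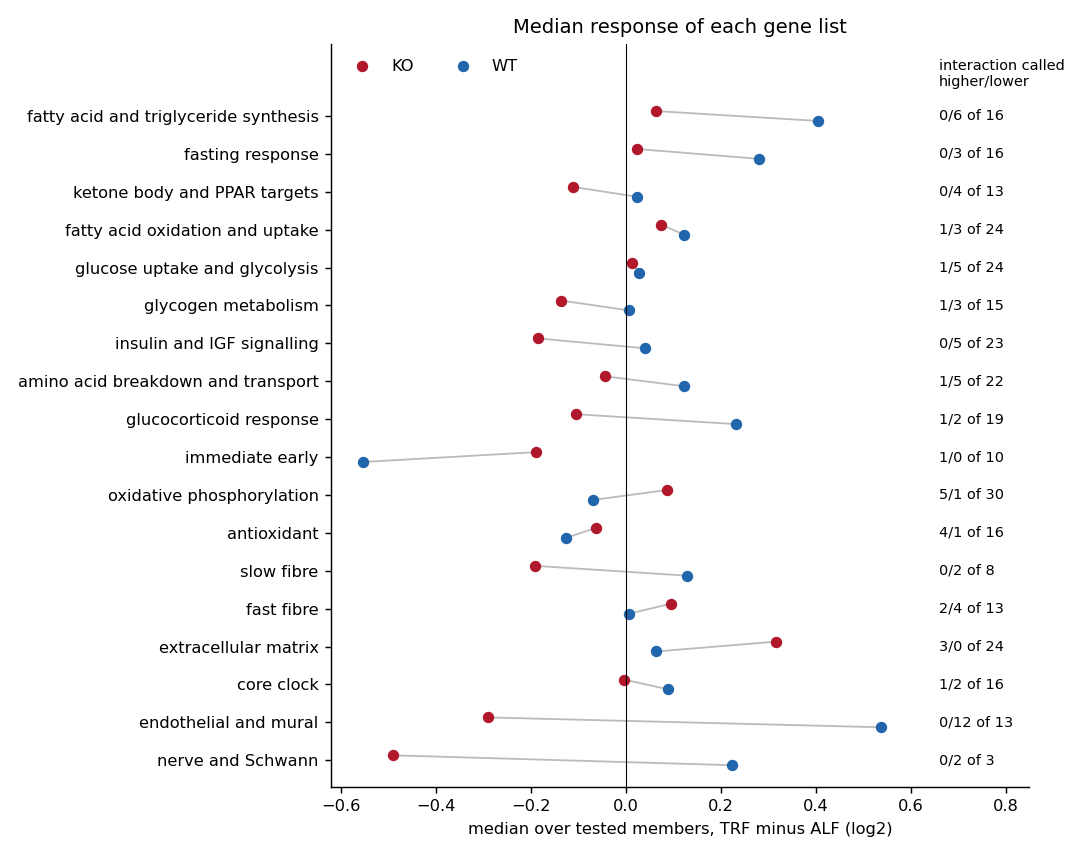
Median TRF minus ALF response (log2) over the tested members of each list, with KO above WT in every row, and at the right how many members had a called interaction higher or lower in KO. Lipid synthesis and endothelial lists have the WT point to the right and the KO point near or below 0.

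Markers of blood vessels had the most uniform interaction of the lists examined. Of 13 endothelial and mural genes 12 (92.3%) were lower in KO and none higher, against 16.6% of all genes called lower. Their median interaction was -0.77. In KO 7 (53.8%) fell, against 13.6% of all genes, and in WT 10 (76.9%) rose, against 16.6%. Acta2 and Myh11, smooth muscle genes of the vessel wall, had interactions of -1.20 and -1.18. Kdr and Flt1, the receptors for VEGF on endothelial cells, had -0.94 and -0.88. The mean log2 level of the 13 markers ran from 2.14 through a median of 2.90 to 3.58 in KO TRF and from 2.40 through 3.24 to 3.89 in KO ALF. It ran from 2.56 through 3.26 to 3.59 in WT TRF and from 1.74 through 2.64 to 3.35 in WT ALF. In whole muscle, fewer cells of a type and less RNA per cell cannot be told apart.

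With the GC and length slopes 3 vessel genes stayed called, Acta2 among them, and the list median was -0.32. The part of the vessel markers in the results above was not tested, and their mean level itself had an interaction of -0.75 between the group means. A covariate of that mean level was added to the fit after the data were seen. It left 200 called interactions, 75 of them called with the same direction without it. Of the 78 genes named here with a called interaction, 12 stayed called: Fos, Vsig2, Ppara, Slc26a10, Dgat2, Bdh1, Ldhb, Tsc1, Ivd, Col5a1, Loxl1 and Dusp1. With the GC and length slopes 8 of the 78 stayed called: Fos, Vsig2, Ppara, Slc26a10, Sh2d3c, Bdh1, Ldhb and Acta2. Mbp, a myelin gene among the nerve markers, had a lower interaction too (-0.94). Among 6 tested fibroblast markers Lum was higher (0.73) and Pdgfrb lower (-0.60). No member of the macrophage and lymphoid, adipocyte, tendon, satellite cell or erythrocyte lists had a called interaction. All 6 muscle-defining genes were tested, their mean log2 level was 11.3 in KO TRF, 11.5 in KO ALF, 11.3 in WT TRF and 11.2 in WT ALF, and 2 had a lower interaction.

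Of the 12 largest negative interactions, 7 belonged to genes in none of the lists. All of these but Hipk2 were called higher in KO than in WT on ALF, while Hipk2 differed by -1.27 between KO and WT on TRF and by 0.04 on ALF, where it was not called. Vsig2, an immunoglobulin family membrane protein, ran in log2 FPKM from 1.14 through 1.84 to 2.63 in KO TRF and from 0.38 through 2.05 to 3.13 in KO ALF. It ran from 1.31 through 2.07 to 2.69 in WT TRF and from -0.63 through 0.56 to 2.51 in WT ALF. All 24 WT TRF libraries lay above the WT ALF median, and 11 of 23 KO TRF libraries above the KO ALF median. The interaction was -1.66 ± 0.22 (adjusted p = 2.8e-07), and it was -1.29 (adjusted p = 0.00024) with the GC and length slopes. Slc26a10, of an anion transporter family, had an interaction of -1.40 ± 0.21 (adjusted p = 4.2e-06), with 17 of 24 WT TRF libraries above the highest WT ALF library. It stayed called with the slopes at -1.22. Sh2d3c, an adaptor protein, had -1.23 and stayed called at -0.63. Nrgn, a calmodulin-binding protein, had -1.22, and Insl3, a hormone known from the testis, had -1.42, and neither was called with the slopes. Mir145a, a microRNA gene of smooth muscle, had -2.32, with libraries at the lowest value of -6.44 in KO TRF, KO ALF and WT ALF.

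At the other end Acp5, an acid phosphatase of osteoclasts and macrophages, rose by 1.45 in KO and had -0.25 in WT, an interaction of 1.70 ± 0.61 (adjusted p = 0.0304). The largest positive value belonged to the small nucleolar RNA gene Gm22200 (3.71 ± 1.26). Its median log2 FPKM were 1.41 in KO TRF, 0.47 in KO ALF, 0.60 in WT TRF and 1.76 in WT ALF, and its lowest libraries were near -6 in every group. The 12 largest also held Fos, mt-Co2 and mt-Co3, described above. Most of the others are short or copied genes whose reads are uncertain. Snrpert (2.01), Gm8069 (1.66) and Cox6c2 (1.61) are processed pseudogenes, Gm25301 (0.98) is a microRNA gene, and Gm11967 (1.04) and Gm17024 (1.0) overlap other genes. Gm10037 (1.33) is annotated as protein coding. Gnas, which encodes the stimulatory G protein subunit and was picked after its values were seen, rose by 1.53 in KO and 1.56 in WT (interaction -0.03 ± 0.26).

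Ces1d, a carboxylesterase gene, comes from a list of muscle genes chosen on these data, so its split by genotype is no independent check of the labels. It lay at or below -0.60 log2 FPKM in every KO library and at or above 1.53 in every WT library. Arntl reads themselves stayed high in KO, with medians of 3.60 in KO TRF and 3.73 in KO ALF, against 3.08 in WT TRF and 2.84 in WT ALF. Gene-level values do not show where in Arntl a read lies, so they say nothing about the stop cassette.

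Mean levels of core clock genes were called on TRF about as often as those of all genes. Of 16 tested core clock genes of 19 listed, 1 rose and 2 fell in KO (18.8%, against 20.7% of all genes), and 4 rose and 1 fell in WT (31.2%, against 33.8%). The interaction was called higher for 1 and lower for 2. Nr1d2, which encodes the repressor REV-ERB beta, had 0.08 in KO and fell by 0.26 in WT, an interaction of 0.34. Cry2, a partner of PER in repression, had -0.15 in KO and rose by 0.30 in WT, an interaction of -0.45. Bhlhe40, a repressor at E-boxes, fell by 0.48 in KO and had 0.05 in WT, an interaction of -0.53. Per1 (-0.71) and Nfil3 (-0.46) were larger or similar in size and not called. The median interaction was -0.09, and with the GC and length slopes none was called.

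No gene had a called interaction in rhythm, the joint test of cosine and sine terms in limma. At an unadjusted p under 0.05 there were 290 of 9862 genes. The clock genes with the smallest unadjusted p were Dbp (0.02) and Arntl (0.0331), both at an adjusted p of 0.95. Dbp, a transcription factor driven straight by BMAL1 and CLOCK, had an amplitude of 0.17 ± 0.10 in KO TRF and 0.18 ± 0.10 in KO ALF, against 1.97 ± 0.10 in WT TRF and 1.39 ± 0.10 in WT ALF (log2, SE). Arntl had 0.18 ± 0.09 in KO TRF and 0.08 ± 0.09 in KO ALF, against 1.69 ± 0.10 in WT TRF and 1.08 ± 0.10 in WT ALF. Nfil3, a repressor at D-boxes, had 0.31 ± 0.15 in KO TRF and 0.17 ± 0.14 in KO ALF, against 1.37 ± 0.14 in WT TRF and 0.65 ± 0.15 in WT ALF. Rhythm was called in 5 of the 16 clock genes in KO TRF and none in KO ALF. In WT it was called in 12 on TRF and 11 on ALF. Of all tested genes 25.9% were rhythmic in KO TRF, 0.0101% in KO ALF, 22.3% in WT TRF and 0.953% in WT ALF. The KO TRF share of the clock list, 31.25%, was thus near that of all genes. With the GC and length slopes 3 clock genes were rhythmic in KO TRF, where 384 of all 9862 genes were. In WT 13 were rhythmic on TRF and 12 on ALF with these slopes.

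**Figure D5:**
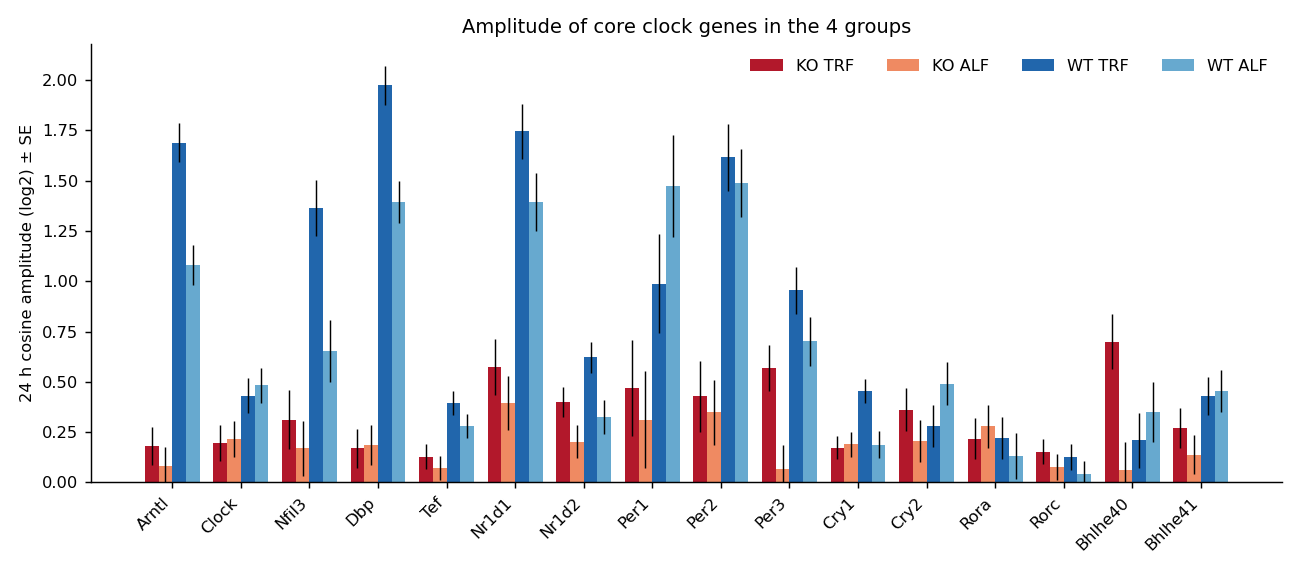
Bars give the fitted 24 h cosine amplitude (log2) of 16 core clock genes in the 4 groups, with SE. Most bars are taller in the WT groups, and Bhlhe40 and Per3 are exceptions or intermediate in KO TRF.

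The 5 clock genes rhythmic in KO TRF were Per3, Nr1d1, Nr1d2, Cry2 and Bhlhe40. Per3, a period protein gene, had an amplitude of 0.57 ± 0.11 in KO TRF and 0.06 ± 0.12 in KO ALF, against 0.95 ± 0.12 in WT TRF and 0.70 ± 0.12 in WT ALF, and it peaked at ZT 11 in KO TRF and ZT 11.8 in WT TRF. Nr1d2 peaked at ZT 11.7 in KO TRF and ZT 12.1 in WT TRF. Nr1d1, which encodes REV-ERB alpha, peaked at ZT 2.00 in KO TRF and ZT 5.62 in WT TRF. Bhlhe40 had 0.70 ± 0.14 in KO TRF, against 0.21 ± 0.14 in WT TRF, where it was not called. None of these 5 had a called difference in rhythm between TRF and ALF within KO.

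Beyond the clock, 2558 genes (25.9%) were called rhythmic in KO TRF and 1 (0.0101%) in KO ALF, against 2200 (22.3%) in WT TRF and 94 (0.953%) in WT ALF. The median amplitude over all tested genes was 0.19 in KO TRF and 0.10 in KO ALF, against 0.17 in WT TRF and 0.08 in WT ALF. A direct test of the rhythm on TRF against ALF called 1 gene in KO, 2500002B13Rik, and 16 in WT, led by Coq10b, Mxd4 and Ppp1r9b, all chosen by their p (1332 and 1902 genes at an unadjusted p under 0.05). Of the genes rhythmic on TRF 901 were shared, 35.2% of the KO ones and 41.0% of the WT ones, with a median distance of 0.98 h between the peaks. With the GC and length slopes the counts were 384 in KO TRF and 1284 in WT TRF, of which 196 were shared (51.0% of KO and 15.3% of WT). Without the second animal of each time point 38 genes were rhythmic in KO TRF.

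The genes of smallest p in the rhythm interaction, none called at an adjusted p of 0.95, were Cpxm2, Ifit3b, Gm12279, Trim55, Lox, Vwa7, Gm15816, Vps26c, Cmtr2 and Arsa. Cpxm2, of a carboxypeptidase family, had an amplitude of 0.12 in KO TRF and 0.38 in KO ALF, against 0.48 in WT TRF and 0.34 in WT ALF (unadjusted p = 0.00026). It peaked at ZT 1.5 in KO TRF and ZT 4.09 in KO ALF, against ZT 3.91 in WT TRF and ZT 16.7 in WT ALF. Lox, which crosslinks collagen, had 0.16 in KO TRF and 0.49 in KO ALF, against 0.69 in WT TRF and 0.04 in WT ALF. Trim55, a sarcomere ubiquitin ligase also known as MuRF2, had amplitudes of 0.18 in KO TRF and 0.12 in KO ALF, against 0.12 in WT TRF and 0.09 in WT ALF.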

How the data were processed

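RNA from whole tibialis anterior muscle was sequenced as 150 bp pairs at an average of 25 M pairs per library, per the labels' protocols, which also state that 8 of 360 libraries were excluded. The deposited table holds log2 FPKM of 14413 genes in 352 libraries, made by the authors. The build was GRCm38, per the submitters' processing notes, which also name limma 3.44.1 beside edgeR 3.30.0, featureCounts 1.6.2 with HISAT2 2.1.0, and Trim Galore 0.5.0 with FastQC 0.11.8. Female and male means of each gene are equal within 1e-05 over the 259 libraries that include all 4 groups, a centring that the sources used here do not describe, so sexes were not compared in level. Strand use in counting was not given in the sources used here.

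Depth was estimated from the steps between low values: 95.7% of values at the median library lay within 0.1 of a whole read after an added shift per gene and sex was undone. No count test was run on these log2 values. Genes with a mean log2 of at least 0 were kept (9862). limma 3.58.1 in R 4.3.3, with trend and robust settings, fitted level, cosine and sine (24 h period) per group and a sex term to 93 libraries, with Benjamini-Hochberg adjustment over all 9862 genes. The fit was run on simulated data with independent noise for each gene and library. That noise lacks shifts shared by the genes of a library, so the run does not give the rate of false calls here. Fold changes are differences of log2 values. The closest pair of libraries in a group had an SD of log2 differences of 0.30, so no pair was identical. Exon length, GC and gene type came from GENCODE M21. Genes named are the 12 largest called interactions in each direction, the 10 of smallest rhythm p, all core clock genes, and, of every other list, the called members with up to 4 of largest interaction, of which the text prints a part. The members and the 34 lists were chosen with earlier results of these data known. Alternatives are in the closing section. The replicate numbers of the labels were not used to pair the samples in the fit reported here. The result of 1 further gene is not reported here.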

Additional observations from a re-analysis of the deposited data

Results flagged for a closer look

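A difference between the genotypes in the response to feeding, shown by the interaction test itself, flags 2716 genes in 24 h mean level. Among the genes named in the text, the interaction was lower in KO at -2.32 for Mir145a, -1.66 for Vsig2, -1.49 for Scd1, -1.43 for Ppara, -1.42 for Insl3, -1.40 for Slc26a10, -1.31 for Ddit4, -1.31 for Hipk2, -1.28 for Myh2, -1.25 for Fasn, -1.23 for Sh2d3c and -1.22 for Nrgn. It was -1.20 for Acta2, -1.18 for Myh11, -1.17 for Bdh1, -0.94 for Mbp, -0.94 for Kdr, -0.90 for Glul, -0.88 for Flt1, -0.88 for Myh1 and -0.86 for Cdkn1a. Values between -0.70 and -0.50 were -0.69 for Lpin1, -0.68 for Dgat2, -0.63 for Atp2a2, -0.63 for Mtor, -0.62 for Acacb, -0.60 for Pdgfrb, -0.60 for Elovl5, -0.57 for Olfm1, -0.53 for Bhlhe40, -0.52 for Myh4, -0.50 for Gys1 and -0.50 for Tsc2. Smaller ones were -0.48 for Tbc1d4, -0.47 for Hk2, -0.46 for Foxo3, -0.46 for Acly, -0.45 for Tsc1, -0.45 for Cry2, -0.44 for Hsp90ab1, -0.43 for Tpm3, -0.41 for Ldhb, -0.38 for Hadha, -0.37 for Pparg, -0.36 for Fbxo21, -0.36 for Ivd, -0.34 for Srebf2, -0.28 for Ppard, -0.27 for Sdha and -0.22 for Prdx6.

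The interaction was higher in KO at 3.71 for Gm22200, 2.01 for Snrpert, 1.71 for Fos, 1.70 for Acp5, 1.66 for Gm8069, 1.61 for Cox6c2, 1.33 for Gm10037, 1.09 for mt-Co3, 1.04 for Gm11967, 1.0 for Gm17024, 0.98 for Gm25301 and 0.95 for mt-Co2. It was 0.73 for Lum, 0.70 for Ndufa2, 0.66 for Fabp3, 0.62 for Col5a1, 0.56 for Pvalb, 0.49 for Prdx1, 0.48 for Hspe1, 0.48 for Dusp1, 0.42 for Slc38a2, 0.42 for Rbm3, 0.38 for Loxl1, 0.37 for Ppp1r3a, 0.34 for Nr1d2, 0.33 for Pgk1, 0.33 for Srsf5 and 0.27 for Dnaja1.

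Among the 6 genes of the time courses, 6 of 114 sets of 4 or 5 mice held a library far from the rest, where chance alone would flag about 1 in 20. The distant log2 FPKM were 1.99 for Scd1 and 0.27 for Ppara, both in KO ALF replicate 8 at ZT 4, and -0.62 for Ppara in KO ALF replicate 3 at ZT 0. They were -1.89 for Ppara in WT TRF replicate 13 at ZT 12 and 1.31 for Vsig2 in WT TRF replicate 23 at ZT 20, both the lowest of their sets. Fasn at ZT 12 was highest, at 0.43, in WT ALF replicate 14.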

How the results depend on the processing

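The count of called interactions in level depended on how the libraries were adjusted, and the cause was not tested. It was 1714 with a filter at a mean log2 of 2 (fewer genes tested), 621 with the length slope as a covariate, 121 with the GC and length slopes, 1523 with the mitochondrial share, 200 with the endothelial level, 583 in females alone and 1589 in males alone (fewer mice). The covariates other than the length slope alone, and the fit without 7 libraries, were chosen after seeing the data. The KO response had 1288 genes at the stricter filter and 203 in males alone. The WT response had 1963 genes at the stricter filter, 694 in females alone, 1903 with the GC slope, 1731 with the GC and length slopes, 1138 with the mitochondrial share and 973 with the endothelial level. The larger count in WT turned round in 5 of these fits, where KO had 2912 genes with the GC slope, 2427 with both slopes, 2275 with the mitochondrial share, 2205 with the endothelial level and 1677 in females. KO against WT on TRF gave 3118 genes at the stricter filter and 3147 in males alone, and on ALF 2745 at the stricter filter and 2830 in females alone.

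The rhythm response counts were small and unstable. In KO they were 0 at the stricter filter, 183 with all 15 groups in the fit, 162 with array weights, 43 with time points as levels, 6 with the length slope, 0 in females, 57 in males and 12 without the 7 libraries. In WT they were 3 at the stricter filter, 472 with all 15 groups, 2944 with array weights, 2 with time points as levels, 33 with the length slope, 292 in females, 0 in males, 0 with the GC slope, 0 with the GC and length slopes, 1585 without the 7 libraries, 6 with the mitochondrial share and 0 with the endothelial level. Rhythmic genes in KO TRF numbered 1658 at the stricter filter, 133 in females, 253 with the GC slope, 384 with the GC and length slopes and 1127 with the mitochondrial share. In KO ALF they numbered 2 with no filter, 23 with all 15 groups, 6 with array weights, 2 with the length slope, 0 in females and 6 in males. In WT TRF they numbered 1160 at the stricter filter, 5226 with array weights, 629 in females, 317 in males, 1272 with the GC slope, 1284 with both slopes and 766 with the endothelial level. In WT ALF they numbered 53 at the stricter filter, 164 with all 15 groups, 255 with array weights, 38 in females, 22 in males, 187 with both slopes, 183 without the 7 libraries and 144 with the endothelial level. The rhythm interaction had 0 calls under every alternative run.

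Leaving out 1 animal of every group and time point in turn gave 719 to 2954 interactions, 377 to 2320 KO and 1999 to 2783 WT responses, 3819 to 4636 KO against WT differences on TRF and 3670 to 4419 on ALF. The rhythm response ranged from 0 to 1 in KO and 0 to 67 in WT, and rhythmic genes from 38 to 2613 in KO TRF, 1 to 3 in KO ALF, 481 to 1678 in WT TRF and 27 to 87 in WT ALF. The lowest interaction counts, 719 and 734, came without the first and the second animal.

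The replicate numbers were checked for pairing. The 129 pairs with the same number had a median correlation of residuals of 0.05, and 50 were over 0.1. The 411 pairs with other numbers at the same time had a median of -0.03, and 107 were over 0.1. Same-number pairs were thus somewhat more alike, and what the number stands for was not tested. With the replicate block 3275 interactions were called, the rhythm response was 3 in KO and 25 in WT, and rhythmic genes were 2 in KO TRF, 2 in KO ALF, 10 in WT TRF and 4 in WT ALF, since the numbers run on through the time points and take up time.

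Among the named genes the sign turned for Ppard (0.0095), Ndufa2 (-0.16), Myh4 (0.077) and Hspe1 (-0.12) with the GC and length slopes, and for Ndufa2 (-0.059) with the length slope. With the endothelial level it turned for Pparg (0.056), Pgk1 (-0.11), Kdr (0.033), Myh4 (0.15), Ndufa2 (-0.11), Prdx1 (-0.050), Pdgfrb (0.095), Hspe1 (-0.14) and Dnaja1 (-0.023). Kdr is itself part of that marker mean. Clock, not called in the fit reported, was -0.20 with the GC slope. Of the 78 called genes, 16 stayed called in females and 33 in males.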

Other observations

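Of 24 extracellular matrix genes, 7 (29.2%) rose on TRF in KO muscle, against 7.1% of all genes, and none fell. In WT none rose and 1 (4.17%) fell, against 16.6% of all genes higher and 17.2% lower. The interaction was called for 3, all higher: the proteoglycan gene Lum (0.73), the collagen gene Col5a1 (0.62) and the crosslinking enzyme gene Loxl1 (0.38). These are 12.5% of the list, against 27.5% of all genes called and 11% called higher. The median response was 0.32 in KO and 0.06 in WT. With the GC and length slopes no interaction of the list was called, and the median interaction was 0.32, against 0.19 without the slopes. Lum is also a fibroblast marker, and the mean log2 level of 6 tested fibroblast markers, of 7 listed, was 3.41 in KO TRF and 3.03 in KO ALF, against 3.76 in WT TRF and 3.74 in WT ALF.

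A list of 5 genes for temperature held Hspa5 and Creld2 beside RNA-binding genes. Of these 5, 2 were higher in KO (40.0%, against 27.5% of all genes called). They were Rbm3 (0.42), which cold induces, and the splicing factor gene Srsf5 (0.33). Of 13 heat shock genes 2 were higher, Hspe1 (0.48) and Dnaja1 (0.27), and 1 lower, Hsp90ab1 (-0.44). Of 21 atrophy and autophagy genes 2 were lower, Foxo3 (-0.46) and the ubiquitin ligase subunit gene Fbxo21 (-0.36), and of 12 cholesterol genes 1, Srebf2 (-0.34), the regulator of cholesterol synthesis. No alpha-arrestin gene (of 5) and no gene of the integrated stress response (of 10) had a called interaction. Of 15 muscle genes that depend on Bmal1, a list chosen on these data, 1 was higher and 3 lower, among them Olfm1 (-0.57). The called shares were 23.1% for heat shock, 9.52% for atrophy and autophagy, 8.33% for cholesterol and 26.7% for the Bmal1 list. None of these was above the 27.5% of all genes.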
